A study of Homo sapiens with 6 samples.

Results

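The miR-17-92 cluster is a group of miRNA precursors that are cut from a single primary transcript, the non-coding RNA MIR17HG. The data concern 9 mature miRNAs of this cluster, namely hsa-miR-17-5p, hsa-miR-17-3p, hsa-miR-19a-3p, hsa-miR-19b-3p, hsa-miR-19b-1-5p, hsa-miR-20a-5p, hsa-miR-20a-3p, hsa-miR-92a-3p and hsa-miR-92a-1-5p, written without the prefix from here on. They were chosen by name from the 2588 mature human miRNAs in the deposited table, and the products of miR-18a were not included. All 9 were found, and all 9 passed the filter on low counts, as did 552 miRNAs of the whole table. Small RNA was sequenced from 6 samples of Huh7 cells, a human hepatoma line, 48 h after transfection with Lipofectamine. The overexpression group (3 samples) received the plasmid for hsa_circ_0098181, a circular RNA, and the control group (3 samples) received the control plasmid. Nothing in the labels says whether the samples of a group came from separate cultures, so the p-values measure only the spread between these samples, which may be technical. Values of a group are given in the order of replicates 1 to 3. The overexpression samples held 7978507, 8469016 and 8289232 counts in total, and the control samples held 10786295, 8677214 and 7144798.

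A miRNA precursor folds into a hairpin, and Drosha and then Dicer cut it into a short duplex with a 5p arm and a 3p arm. An Argonaute protein usually keeps 1 arm, the guide, and the other arm, the passenger, is mostly degraded, so that the ratio of the arms at steady state reflects both the choice of the strand and its stability. The guide finds its target mRNAs mainly through the seed, bases 2 to 8. The cluster is also known as oncomiR-1, is transcribed under the control of MYC and E2F factors, and is often abundant in liver cancer. miR-17-5p and miR-20a-5p are known to repress CDKN1A and E2F1, and miR-92a-3p to repress ITGA5.

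In RefSeq (GRCh38.p14), the 6 precursors of the cluster span 787 bases on the plus strand of chromosome 13. MIR17 lies at chr13:91350605-91350688, MIR19A at chr13:91350891-91350972, MIR20A at chr13:91351065-91351135, MIR19B1 at chr13:91351192-91351278 and MIR92A1 at chr13:91351314-91351391. The host gene MIR17HG extends from 91347820 to 91354579 in GENCODE release 29. These 5 precursors lie in the intron between exons 3 and 4 of transcript MIR17HG-201, within exon 3 of MIR17HG-202 and within exon 2 of MIR17HG-203. The sequences of miR-19b-3p and miR-92a-3p are also encoded by MIR19B2 and MIR92A2 on chromosome X, so that their reads cannot be assigned to a single precursor.

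All 9 members were matched to RefSeq. The abundant arms are shown first, grouped by their seed, which is in capitals.
miR-17-5p: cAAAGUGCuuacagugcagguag
miR-20a-5p: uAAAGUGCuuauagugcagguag
miR-19a-3p: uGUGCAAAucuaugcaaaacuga
miR-19b-3p: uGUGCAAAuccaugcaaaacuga
miR-92a-3p: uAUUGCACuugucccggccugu
The scarce arms of the same precursors have other seeds.
miR-17-3p: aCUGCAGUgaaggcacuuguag
miR-20a-3p: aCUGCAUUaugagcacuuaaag
miR-19b-1-5p: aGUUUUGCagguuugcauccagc
miR-92a-1-5p: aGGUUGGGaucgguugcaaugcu

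Counted from 1 at the 5′ end, miR-17-5p and miR-20a-5p differ by the substitutions C1U and C12U, with the base of miR-17-5p first. miR-19a-3p and miR-19b-3p differ by U11C, with the base of miR-19a-3p first. miR-17-5p also differs from miR-106a-5p, encoded on chromosome X, by C1A alone. How reads matching several miRNAs were assigned is not given in the sources used here, and the counts of such near-identical miRNAs are therefore uncertain.

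The hairpins of MIR17 and MIR92A1, whose arm balance is described further on, are given with both arms in capitals and the rest of the precursor in lower case.
MIR17: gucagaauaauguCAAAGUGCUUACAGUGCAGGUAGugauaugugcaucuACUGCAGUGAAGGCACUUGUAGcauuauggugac
MIR92A1: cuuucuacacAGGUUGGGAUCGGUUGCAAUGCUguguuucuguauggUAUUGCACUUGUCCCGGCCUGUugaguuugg
In MIR17 the 5p arm comes first and is the abundant one, while in MIR92A1 the abundant arm is the 3p arm.

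Control replicate 3 stood apart from the other control samples. Over 152 miRNAs with a mean of at least 100 CPM after TMM scaling, the median absolute log2 difference was 0.049 between control replicates 1 and 2, and it was 0.21 between each of them and control replicate 3. Between control replicate 3 and the overexpression samples it was 0.12, 0.19 and 0.16. Where this sample decided a call or a direction, the value without it is also given.

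The members differed in level by more than 3 orders of magnitude. The scale used is the deposited TPM, which scales the count by the total of the sample and has no term for length. Together the members took 3.87% ± 0.142 of the counts with overexpression and 4.33% ± 0.523 in controls (SD, n = 3 each). By sample, the share was 3.78%, 3.80% and 4.04%, in order, in the overexpression samples against 4.57%, 4.70% and 3.73% in the controls. Control replicate 3 had the smallest share of the 6 samples, and the groups overlapped through it.

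miR-20a-5p was the most abundant member, with 13914, 13028 and 14732 TPM, in order, in the overexpression samples against 16763, 16950 and 13892 TPM in the controls. It ranked 10 of 2588 by mean TPM. miR-19b-3p followed with 11012, 12215 and 12135 TPM in the overexpression samples against 15778, 15989 and 9654 TPM in the controls. Its lowest and its highest values of the 6 samples were both in the control group.

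miR-92a-3p had 8803, 8810 and 9382 TPM in the overexpression samples against 7292, 7745 and 9844 TPM in the controls. Here control replicate 3 was the highest of the 6 samples, opposite to its place for miR-19b-3p. miR-19a-3p had 2011, 2275 and 2235 TPM with hsa_circ_0098181 and 3329, 3681 and 1628 TPM with the control plasmid, so that control replicate 3 was again the lowest. miR-17-5p had 1782, 1477 and 1634 TPM in the overexpression samples against 2273, 2332 and 2101 TPM in the controls. This was the only one of the 5 abundant members whose groups did not overlap, with all control samples above all overexpression samples.

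The 4 scarce arms had far lower TPM. miR-17-3p ranged from 129 to 159 TPM over the 6 samples, miR-20a-3p from 48.3 to 61.2 TPM and miR-19b-1-5p from 16.8 to 26.8 TPM. miR-92a-1-5p was the least abundant, with 8.52, 5.79 and 6.15 TPM in the overexpression samples against 9.92, 8.64 and 11.9 TPM in the controls. The highest overexpression value of miR-92a-1-5p was just under the lowest control value, and its total over the 6 samples was 435 counts.

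**Figure D1:**
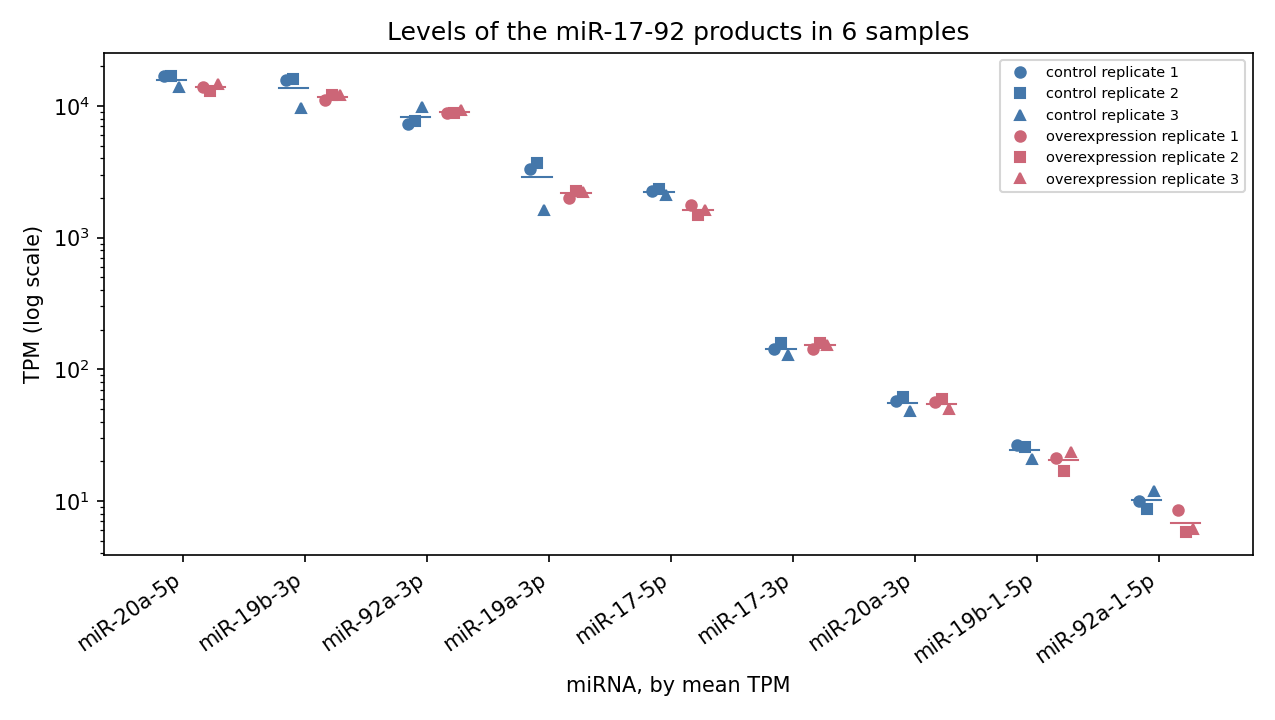
TPM (log axis) of the 9 miR-17-92 products in each of 6 samples, ordered by mean TPM, with control samples in blue and overexpression samples in red, a marker shape for each replicate number and a bar at each group mean. Control replicate 3 is the lowest sample for miR-19a-3p (1628 TPM) and miR-19b-3p (9654 TPM) and the highest for miR-92a-3p (9844 TPM).

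The order of the members by mean TPM was miR-20a-5p, miR-19b-3p, miR-92a-3p, miR-19a-3p, miR-17-5p, miR-17-3p, miR-20a-3p, miR-19b-1-5p and miR-92a-1-5p. The order was the same on a scale of TPM per base, since the mature miRNAs are 22 or 23 bases long. On the TPM scale, 6 of the 8 pairs of neighbours kept their order in 6 of 6 samples. The other pairs, miR-19b-3p over miR-92a-3p and miR-19a-3p over miR-17-5p, kept it in 5 of 6 samples each and were crossed in control replicate 3. Means of neighbours differed least for miR-20a-5p and miR-19b-3p, at 1.16-fold in TPM. The order did not follow the position in the cluster, since mean TPM of the abundant arms was 1933 for MIR17 and 2527 for MIR19A, then 14880 for MIR20A, and lower again for MIR19B1 and MIR92A1 at 12797 and 8646.

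The spread of the miR-19 products in the control group came mostly from control replicate 3. In TPM, the coefficient of variation in the control group was 38.1% for miR-19a-3p and 26.1% for miR-19b-3p, where counting alone gives 0.671% and 0.297%. Between control replicates 1 and 2 alone it was 7.10% and 0.938%, and in the overexpression group it was 6.54% and 5.71%. For miR-92a-1-5p, counting alone gives 10.7% in the control group, against 16.1% observed, so that depth sets much of the precision of this arm.

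**Figure D2:**
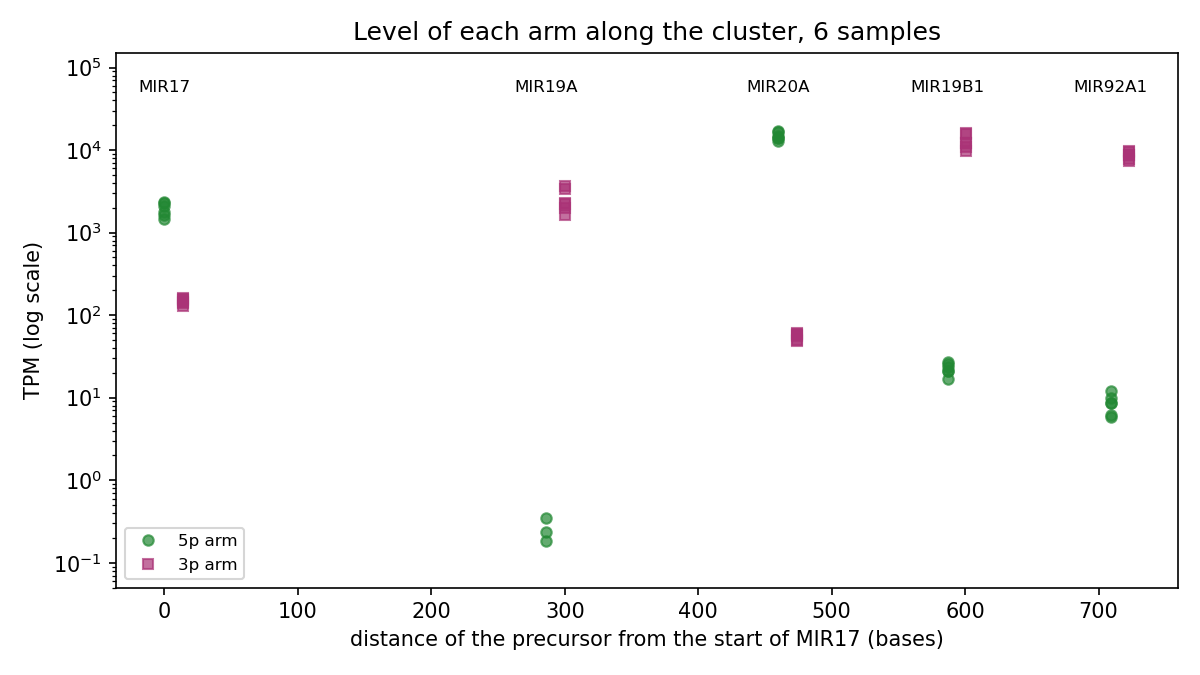
TPM (log axis) of the 5p arm (green circles) and the 3p arm (purple squares, drawn slightly to the right) of 5 precursors in 6 samples, against the distance of the precursor from the start of MIR17 in bases; samples at 0 are not drawn. The 5p arm is the abundant one of MIR17 and MIR20A, and the 3p arm is the abundant one of MIR19A, MIR19B1 and MIR92A1.

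The abundant arm was the 5p arm for MIR17 and MIR20A and the 3p arm for MIR19A, MIR19B1 and MIR92A1, in 6 of 6 samples. The balance was measured as the log2 ratio of 5p to 3p counts with 0.5 added to each, a measure free of the library size. MIR17 was the least one-sided, with a log2 ratio of 3.42 ± 0.207 with overexpression and 3.96 ± 0.0815 in controls (SD, n = 3 each). MIR20A had 7.98 ± 0.216 and 8.16 ± 0.0436 in the same groups (SD, n = 3 each). Although miR-17-5p and miR-20a-5p differ by only 2 substitutions, the scarce arm made up 8.57% ± 1.12 of the MIR17 counts with overexpression, against 0.396% ± 0.0581 of the MIR20A counts (SD, n = 3 each).

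The MIR19B1 log2 ratio was -9.18 ± 0.284 with overexpression and -9.11 ± 0.228 in controls (SD, n = 3 each). Among the 4 precursors with both arms past the filter, the MIR92A1 ratio was the most extreme, at -10.37 ± 0.322 and -9.67 ± 0.142 (SD, n = 3 each). For these precursors the 3p counts may contain reads of the copies on chromosome X. The 5p arms are specific to a copy, and over the 6 samples 1167 counts fell on miR-19b-1-5p against 0 on miR-19b-2-5p, and 435 on miR-92a-1-5p against 1 on miR-92a-2-5p. The MIR92A1 copy thus held 99.8% of the 5p counts of both copies, which measures the passenger arms and not the 3p arms themselves.

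miR-19a-5p, the other arm of MIR19A, had 0, 2 and 0 counts, in order, in the overexpression samples against 2, 3 and 0 counts in the controls. It was too scarce for the filter, so no ratio was tested for MIR19A. Its 7 counts over 6 samples stood against 133328 counts of miR-19a-3p.

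Among 155 pairs of arms that both passed the filter, the median size of the log2 ratio was 4.05, and the 10th and 90th percentiles were 0.76 and 9.31. By size, MIR92A1 ranked 10, MIR19B1 20, MIR20A 30 and MIR17 85 of the 155. MIR17 was thus near the middle of all pairs and the other 3 were among the more one-sided. The 5p arm was the more abundant in 93 pairs and the 3p arm in 62.

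The first base and the A or U content of the 5′ end are features known to bear on strand choice. Of the abundant arms, miR-20a-5p, miR-19a-3p, miR-19b-3p and miR-92a-3p start with U and miR-17-5p starts with C, while the 4 scarce arms start with A. Over 134 pairs with both sequences in RefSeq, 56.7% of the more abundant arms and 18.7% of the less abundant arms started with U. Among the first 4 bases, the number of A or U was 3 in miR-17-5p and 2 in miR-17-3p, and it was 4 in miR-20a-5p and 2 in miR-20a-3p. It was 4 in miR-92a-3p and 2 in miR-92a-1-5p, but 2 in miR-19b-3p and 3 in miR-19b-1-5p, where the scarce arm had more. The same held for MIR19A, with 2 in miR-19a-3p and 3 in miR-19a-5p. Over the 134 pairs, the mean number was 2.33 in the more abundant arms and 1.88 in the less abundant arms. This is a description of the sequences, and no test was made.

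The overexpression group was then compared with the control group, which asks whether the plasmid for hsa_circ_0098181 came with a different arm balance. The MIR17 log2 ratio was 3.64, 3.22 and 3.41, in order, in the overexpression samples against 4.0, 3.87 and 4.02 in the controls. All overexpression samples lay below all control samples. The difference was -0.54 (standard error 0.134, 95% confidence interval -0.80 to -0.28), and the adjusted p from limma was 0.00947 over 155 pairs. In shares, miR-17-3p made up 7.44%, 9.67% and 8.61% of the MIR17 counts in the overexpression samples against 5.88%, 6.40% and 5.80% in the controls. The exact 95% binomial intervals closest to each other were 7.03% to 7.86% in overexpression replicate 1 and 6.07% to 6.73% in control replicate 2, and they cover counting error only.

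The MIR17 call depended on the set of samples. The difference was below 0 in all 6 fits that each left out a sample, from -0.65 to -0.44, but it passed the threshold in only 1 of them. Without control replicate 3, the difference was -0.51 (adjusted p = 0.000996 from limma). Without overexpression replicate 1, 2 or 3 the adjusted p from limma was 0.0896, 0.307 and 0.0944, and without control replicate 1 or 2 it was 0.109 and 0.0848. Of these, 0.000996 and 0.307 were also the lowest and the highest adjusted p of MIR17 over all alternatives, limma and edgeR included. The fit to 6 samples drew almost all of its estimate of the spread from the other pairs, with 5589 prior degrees of freedom against 4 of the pair itself. By the exact two-sided permutation test over samples, p was 0.1 for MIR17, which is the smallest that 3 samples against 3 can give.

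MIR92A1 had log2 ratios of -10.00, -10.56 and -10.56, in order, in the overexpression samples against -9.52, -9.80 and -9.68 in the controls. Here too the groups did not overlap, and the scarce 5p arm was the lower one relative to miR-92a-3p in the overexpression group. The difference was -0.71 (standard error 0.233, 95% confidence interval -1.17 to -0.25), which missed the threshold with an adjusted p of 0.0656 from limma. It passed without control replicate 3 (-0.72, adjusted p = 0.0393 from limma) and in edgeR on the counts of both arms (-0.70, adjusted p = 0.0269), and its adjusted p ranged from 0.0269 to 0.548 across the alternatives. The exact permutation p was 0.1, the smallest possible.

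MIR20A and MIR19B1 showed smaller differences. The MIR20A ratio was 7.95, 7.78 and 8.21 in the overexpression samples against 8.20, 8.11 and 8.17 in the controls, a difference of -0.18 (95% confidence interval -0.47 to 0.12, adjusted p = 0.650 from limma, exact permutation p = 0.4). It was -0.077 without overexpression replicate 2 and -0.29 without overexpression replicate 3. The MIR19B1 ratio was -9.02, -9.50 and -9.01 in the overexpression samples against -9.20, -9.28 and -8.85 in the controls, a difference of -0.067 (95% confidence interval -0.42 to 0.28, adjusted p = 0.888 from limma, exact permutation p = 0.8). For MIR19B1 the direction was not stable, with 0.062 without control replicate 3 and 0.097 without overexpression replicate 2. Whether MIR17 and the other precursors differed from each other in their change was not tested.

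Across the table, 4 of 155 pairs had an adjusted p under 0.05 from limma (2.58%), of which 1 was in the cluster, MIR17. The other 3 were miR-106b, miR-423 and miR-532, of which miR-423 and miR-532 were named after their values were seen, and miR-106b belongs to a paralog cluster of miR-17-92. The groups did not overlap in 31 pairs (20.0%) and in 2 of the 4 precursors. Without control replicate 3, 12 of 159 pairs were called (7.55%), among them MIR17 and MIR92A1. Leaving out any other sample gave 0 calls, with 11 to 22 pairs at an unadjusted p under 0.05. edgeR on the counts of both arms called 2 of 155 pairs (1.29%), and both were in the cluster. Of all 155 differences, 81 were below 0 and the median was -0.033.

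**Figure D3:**
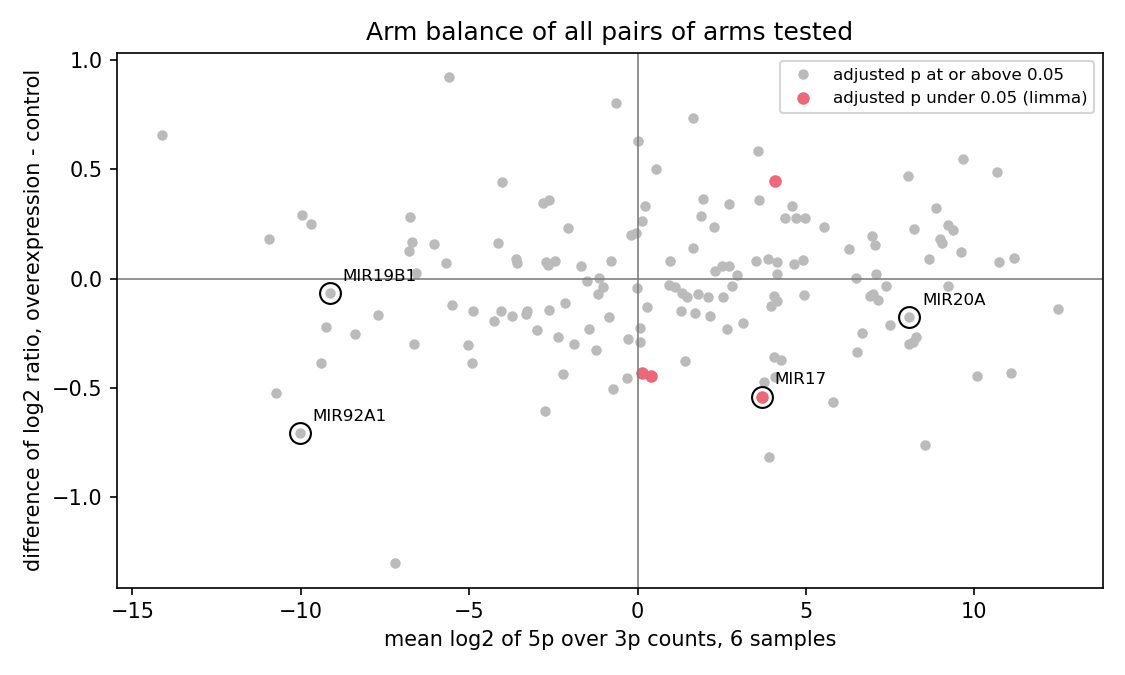
Difference of the log2 ratio of 5p to 3p counts between overexpression and control (vertical axis) against the mean log2 ratio over 6 samples (horizontal axis) for 155 pairs of arms, with pairs under an adjusted p of 0.05 in limma in red and the 4 cluster precursors circled. MIR17 is red at a difference of -0.54, and MIR92A1, at -0.71, is not.

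In the levels themselves, 0 of the 9 members passed edgeR's test at an adjusted p of 0.05, beside 0 of all 552 miRNAs (0%). At an unadjusted p under 0.05 there were 50 miRNAs in edgeR and 41 in DESeq2, and DESeq2 also called 0. Among the members, 3 had an unadjusted p under 0.05 in edgeR, of which miR-17-5p and miR-92a-1-5p were lower and miR-92a-3p was higher in the overexpression group. The median log2 fold change was -0.12 over the 9 members and 0.0038 over all miRNAs tested, with 6 members below 0 and 3 above. The member median was -0.30 without control replicate 3, with 7 members below 0 and 2 above. It was -0.027 without control replicate 1 and -0.23 with the library size alone. In TPM the groups did not overlap for 2 of the 9 members, both lower, beside 101 of 552 miRNAs (18.3%). Of the 101, 90 were lower and 11 higher with overexpression. In CPM after TMM scaling the groups did not overlap for 1 member, miR-17-5p, beside 85 miRNAs (15.4%). Fewer cells that express a miRNA and less of it per cell cannot be told apart in such bulk samples.

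The log2 fold change of miR-17-5p was -0.34 (standard error 0.091, 95% confidence interval -0.54 to -0.15), with an adjusted p of 0.295 from edgeR. That of miR-17-3p, from the same hairpin, was 0.19 (standard error 0.122, 95% confidence interval -0.07 to 0.46), with an adjusted p of 0.610 from edgeR. The arms of MIR17 thus had estimates of opposite sign, and neither passed the threshold by itself. The estimate of miR-17-3p was smaller without control replicate 3 (0.078) and with no TMM factors (0.079), and across the alternatives it ranged from 0.078 to 0.27. For miR-92a-3p the estimate was 0.24 with a standard error of 0.090 (edgeR, adjusted p = 0.421), and for miR-92a-1-5p it was -0.46 with a standard error of 0.188 (edgeR, adjusted p = 0.435).

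The other members had log2 fold changes of -0.30 for miR-19a-3p, -0.12 for miR-19b-3p, -0.16 for miR-19b-1-5p, -0.082 for miR-20a-5p and 0.095 for miR-20a-3p. Their adjusted p from edgeR was between 0.653 and 0.799. Across the alternatives the estimates ranged from -0.62 to -0.095 for miR-19a-3p and from -0.36 to -0.0028 for miR-19b-3p. They ranged from -0.30 to -0.058 for miR-19b-1-5p, from -0.22 to -0.027 for miR-20a-5p and from -0.039 to 0.18 for miR-20a-3p. The wide interval of miR-19a-3p, from -0.79 to 0.18, came with the spread of its control samples.

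Control replicate 3 changed the calls on levels. Without it, 56 of 565 miRNAs were called by edgeR (9.91%), among them 5 of the 9 members. miR-17-5p, miR-19a-3p, miR-19b-3p and miR-20a-5p were then lower with overexpression, at log2 fold changes of -0.44, -0.62, -0.36 and -0.22, and miR-92a-3p was higher, with 0.32. Their adjusted p from edgeR were 9.01e-06, 7.13e-09, 2.35e-05, 0.0103 and 0.000136. In other alternatives the adjusted p of each of these 5 members reached at least 0.847. Control replicate 3 differed from control replicates 1 and 2 by -1.20 on the log2 CPM scale for miR-19a-3p, -0.81 for miR-19b-3p and 0.29 for miR-92a-3p. The overexpression samples differed from control replicates 1 and 2 by -0.61, -0.35 and 0.34 for the same members, so that control replicate 3 lay on the side of the overexpression group and, for the miR-19 products, beyond it. Why this library differs was not tested.

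**Figure D4:**
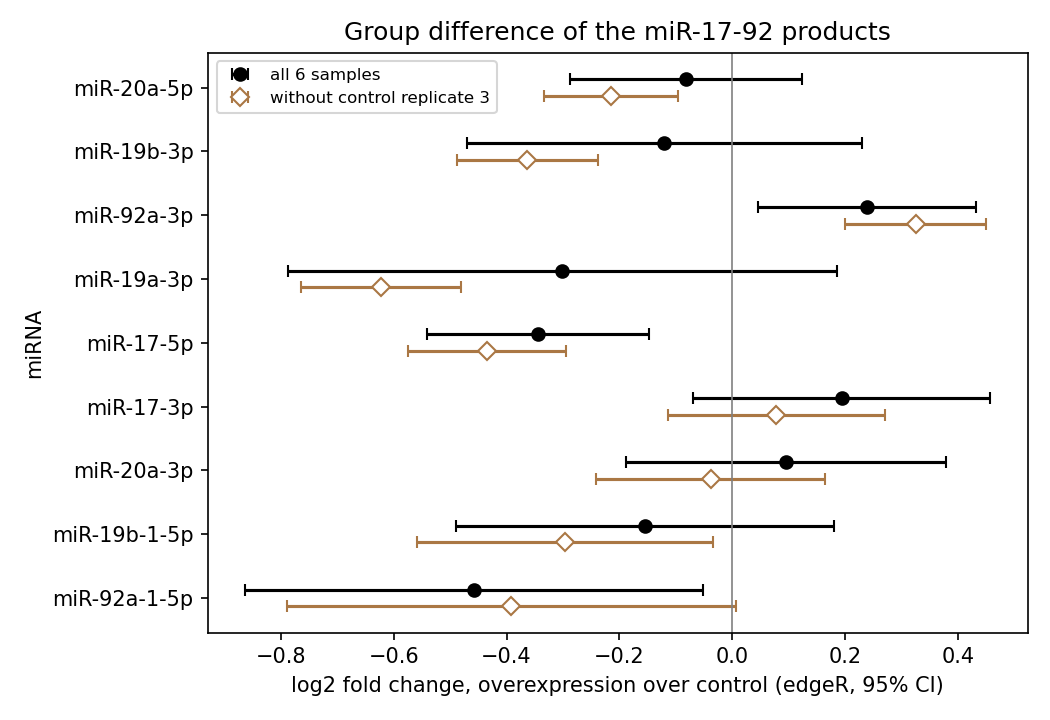
Log2 fold change of the 9 miR-17-92 products, overexpression over control, with 95% confidence intervals from edgeR, for all 6 samples (black circles) and without control replicate 3 (open diamonds). With all 6 samples miR-19a-3p has the estimate -0.30 and an interval that includes 0, and without control replicate 3 the estimate is -0.62.

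The scaling also moved the values. With the library size alone the median log2 fold change of all miRNAs was -0.11, and miR-17-5p was among 3 of 552 miRNAs called (0.543%), with -0.45 (adjusted p = 0.0381 from edgeR). Without a filter on low counts it was the only member among 6 of 1366 miRNAs called (0.439%), with -0.36 (adjusted p = 0.0392 from edgeR). The adjusted p of miR-17-5p ranged from 9.01e-06 to 0.847 across the alternatives. The sign of miR-20a-3p turned with the library size alone, at -0.017, and without control replicate 3, at -0.039.

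Ratios between products of different precursors of the same transcript also do not depend on the library size. The log2 ratio of miR-17-5p to miR-92a-3p counts was -2.30, -2.58 and -2.52, in order, in the overexpression samples against -1.68, -1.73 and -2.23 in the controls. The groups did not overlap, and control replicate 3 lay next to overexpression replicate 1. For miR-19a-3p over miR-92a-3p the values were -2.13, -1.95 and -2.07 in the overexpression samples against -1.13, -1.07 and -2.60 in the controls. Here the groups overlapped through control replicate 3. They also overlapped through it for miR-19b-3p and for miR-20a-5p over miR-92a-3p, where the difference of the means was -0.32 each. These ratios were computed after the values were seen and were not tested.

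The paralog clusters carry miRNAs with the same seeds. miR-106a-363, on chromosome X, had low counts for the products listed for it, which leave out miR-19b-3p and miR-92a-3p, also encoded there. Of the 10 listed, 4 passed the filter, and the highest mean in either group was 9.77 TPM, for miR-20b-5p. Of the 4, 0 passed edgeR's test. miR-106b-25, within an intron of MCM7, was abundant, and 6 of its 6 products were tested, also with 0 calls. Without control replicate 3, 2 of these passed edgeR's test, miR-106b-5p at a log2 fold change of -0.50 and miR-25-3p at 0.24, with adjusted p of 1.89e-05 and 0.00306, and in another alternative both reached 0.847. miR-25-3p had 31049 ± 393 TPM with overexpression and 28758 ± 2046 TPM in controls (SD, n = 3 each), above every member of miR-17-92 in TPM.

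The arm balance of miR-106b was among those called, with log2 ratios of 0.30, 0.059 and 0.19, in order, in the overexpression samples against 0.81, 0.86 and 0.21 in the controls. The difference was -0.44 (standard error 0.129, adjusted p = 0.0337 from limma), with the spread again estimated almost wholly from the other pairs. The SD of the pair itself was 0.122 with overexpression and 0.362 in controls (n = 3 each). The groups overlapped through control replicate 3. Without that sample the difference was -0.65 (adjusted p = 2.73e-06 from limma), and the adjusted p ranged from 2.73e-06 to 0.548 across the alternatives. miR-106b-5p has the seed of miR-17-5p and differs from it by C1U, U10G and G20A over 21 bases. The differences for miR-93 and miR-25 were -0.072 and -0.17, with adjusted p of 0.809 and 0.610 from limma. Without control replicate 3 they were -0.10 and -0.035. Across the alternatives they ranged from -0.11 to -0.026 for miR-93 and from -0.24 to -0.035 for miR-25.

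By seed, the AAAGUGC group of 8 miRNAs summed to 44551 ± 1060 TPM with overexpression and 46966 ± 1911 TPM in controls (SD, n = 3 each). Its most abundant miRNA was miR-93-5p, and miR-17-5p and miR-20a-5p together supplied 34.8% ± 1.50 and 38.5% ± 3.39 of the sum (SD, n = 3 each). The AUUGCAC group of 6 miRNAs was led by miR-25-3p and summed to 39559, 40338 and 40514 TPM in the overexpression samples against 34802, 35687 and 41068 TPM in the controls. Control replicate 3 was the highest of the 6 samples, and the control mean was 37186 TPM with it and 35244 TPM without it, against 40137 TPM with overexpression. miR-92a-3p supplied 22.4% ± 0.674 and 22.2% ± 1.57 of its sum in TPM (SD, n = 3 each). Of its scarcer members, miR-92b-3p had 8.29 ± 0.227 TPM with overexpression and 8.02 ± 1.47 TPM in controls (SD, n = 3 each). miR-32-5p had 80.2 ± 7.07 TPM with overexpression and 124 ± 18.3 TPM in controls (SD, n = 3 each), and its groups did not overlap. The log2 fold change of miR-32-5p was -0.52 (adjusted p = 0.295 from edgeR), and its adjusted p ranged from 9.88e-07 without control replicate 3 to 0.847 across the alternatives. It passed edgeR's test when control replicate 3, the TMM factors or the filter on low counts was left out. The GUGCAAA group consisted of miR-19a-3p and miR-19b-3p alone, with sums of 13023, 14489 and 14371 TPM in the overexpression samples against 19107, 19670 and 11283 TPM in the controls. Control replicate 3 was the lowest of the 6 samples, and the control mean was 16687 TPM with it and 19389 TPM without it, against 13961 TPM with overexpression.

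The profile over the 6 samples was compared by the root mean square difference of log2 CPM centred on its mean. The 5 abundant members did not share a profile, since miR-19a-3p and miR-92a-3p lay 0.55 apart, and miR-19a-3p and miR-19b-3p lay 0.15 apart. Among 152 miRNAs with at least 100 CPM, the 5 outside the cluster nearest to the mean profile of the 5 members were miR-548x-3p (0.057), miR-130a-3p (0.059), miR-15a-5p (0.060), miR-194-5p (0.062) and miR-624-5p (0.065). The median distance over all of them was 0.19. Taken singly and among miRNAs outside the cluster, miR-17-5p was nearest to miR-106b-5p (0.053), closely followed by miR-140-5p (0.055). miR-19a-3p was nearest to miR-190a-5p (0.12), miR-19b-3p to miR-374a-3p (0.066), miR-20a-5p to miR-194-5p (0.034) and miR-92a-3p to miR-576-5p (0.037).

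The labelled cell type was checked with marker miRNAs. The 4 hepatocyte miRNAs summed to between 403377 and 435127 TPM over the 6 samples, led by miR-122-5p. The 6 blood cell miRNAs summed to 14.8, 13.3 and 13.8 TPM in the overexpression samples against 17.2, 19.5 and 17.6 TPM in the controls, so that the groups did not overlap, led by miR-142-3p and with miR-144-3p at 0 in some samples. The groups also did not overlap for miR-142-3p, at a log2 fold change of -0.50 (adjusted p = 0.314 from edgeR), and the part of this in the other results was not tested. The 3 muscle miRNAs summed to between 1.45 and 2.24 TPM, led by miR-1-3p, with miR-133a-3p and miR-206 at 0 in some samples. The 4 stromal miRNAs summed to between 115 and 132 TPM, led by miR-143-3p, with miR-214-3p at 0 in some samples, and the 2 neuronal miRNAs to between 98.6 and 149 TPM, led by miR-9-5p. The 2 endothelial miRNAs summed to between 3811 and 4341 TPM, led by miR-126-3p. In TPM the groups also did not overlap for miR-126-3p and miR-142-5p, both higher with overexpression, and for miR-148a-3p and miR-143-3p, both lower. The log2 fold change of miR-126-3p was 0.16 (adjusted p = 0.562 from edgeR), and miR-142-5p did not pass the filter on low counts. Of the 15 markers tested, 0 passed edgeR's test. Without control replicate 3, miR-148a-3p of the hepatocyte list (log2 fold change -0.21, adjusted p = 0.00658 from edgeR) and miR-142-3p of the blood cell list (-0.57, adjusted p = 0.0181 from edgeR) passed it, and in other alternatives their adjusted p reached 0.865 and 0.847. The lists did not move together in that fit, since the estimates were 0.13 for miR-122-5p, 0.036 for miR-192-5p and -0.15 for miR-194-5p among hepatocyte miRNAs, and 0.29 for miR-223-3p and 0.75 for miR-150-5p among blood cell miRNAs, and none of these passed the threshold.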

How the data were processed

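Small RNA counts of 6 Huh7 samples were used, grouped by the sample labels. The authors deposited counts of reads per mature miRNA, without normalization, and TPM values, which were checked to equal the count scaled by the total of the sample to within 0.00303. The submitters' processing notes name TopHat2 2.0.9, Bowtie and the build hg38, with no role given; trimming, the miRNA annotation and the handling of reads matching several miRNAs are not given in the sources used here.

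The count model was edgeR 4.0.16 in R 4.3.3 (filterByExpr with a minimum count of 10 and a minimum total of 15, TMM factors, two-sided quasi-likelihood test on the group alone, Benjamini-Hochberg adjustment over all miRNAs tested, threshold 0.05). Arms were paired by name. Where only 1 of the arms carries a copy number in its name, it was paired with the arm without one, which joined 6 pairs with the number in the 5p arm and 14 with it in the 3p arm; 8 arms were in 2 pairs each. Log2 ratios with 0.5 added to each arm were compared with limma 3.58.1 (trend on the scarcer arm), adjusted over all pairs. Both fits were tested on simulated data, in which no sample was made to stand apart from its group. The miRNAs named were the members, their other arms, the paralog clusters, seed relatives, cell type markers and the 5 nearest profiles. The nearest profiles of single members were named as well. The members and lists were chosen with earlier results of these data known. Alternatives were DESeq2 1.42.0, other scalings and filters, limma on log2 CPM with 1 or 0.1 added, edgeR on the counts of both arms, an added count of 5, the replicate number as a block, and leaving out each sample in turn; leaving out the 14 pairs with a copy number in the 3p arm only was added after the data were seen. Sequences and positions are from RefSeq (GRCh38.p14) and the host gene from GENCODE release 29 (GRCh38).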

Additional observations from a re-analysis of the deposited data

How the results depend on the processing

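edgeR called 0 miRNAs with TMM factors, 3 when only the library size was used, 6 without a filter, and 0 to 56 when a sample was left out. Of the members it called 0, then 1 when only the library size was used, 1 without a filter, and 0 to 5 when a sample was left out. The 56 and 5 were those without control replicate 3. limma called 4 arm pairs, and 0 to 12 when a sample was left out, while edgeR on the counts of both arms called 2.

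The difference of the log2 ratio of MIR17 kept its sign in all alternatives and ranged from -0.65 to -0.44 when a sample was left out, where 5 of 6 fits missed the threshold. For MIR92A1 it was -0.70 with edgeR on the counts of both arms, which passed the threshold, and -0.89 to -0.61 when a sample was left out. For MIR19B1 it ranged from -0.15 to 0.097 when a sample was left out and turned to 0.062 without control replicate 3 and to 0.097 without overexpression replicate 2. For MIR20A it ranged from -0.29 to -0.077 when a sample was left out. The mean ratios over 6 samples moved by at most 0.11 under the alternatives, most of which leave out 1 sample and can move a mean only little. The share of the library in the members, 4.10% over 6 samples, was 6.05% without the most abundant miRNA in the total, as follows from the smaller total. The order of the members was kept at 5 of 9 ranks in control replicate 3. Apart from changes due to fewer samples or a smaller total, the causes were not tested.

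Of 135 values for single members, 126 kept their direction and side of the threshold, 7 came under it, and 2, both of miR-20a-3p, turned (-0.017 when only the library size was used and -0.039 without control replicate 3, with a range of -0.039 to 0.18 when a sample was left out). Whether the replicate numbers pair the samples is not given in the labels. Deviations of same-numbered samples correlated at -0.025, 0.15 and 0.24 over 152 miRNAs. Differently numbered samples were not compared, so these values cannot decide it. With the replicate block, 0 miRNAs and 0 members were called by edgeR, the same 4 arm pairs were called by limma, and the differences of the log2 ratio were -0.54 for MIR17, -0.18 for MIR20A, -0.067 for MIR19B1 and -0.71 for MIR92A1. Without the pairs that have a copy number in the 3p arm only, chosen after the data were seen, the same 4 of the remaining 141 pairs were called. The log2 fold changes of the members under the block were -0.34 for miR-17-5p and 0.24 for miR-92a-3p. Depth limits miR-92a-1-5p most.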
